A study of Mus musculus with 103 samples.

Results

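The 5 genes described here, Otof, Myl4, Crym, Crip2 and Calb1, were followed in the cortex of mice that lack the tRNA methyltransferase Nsun2 in forebrain neurons. They are 5 of 12719 transcripts with a paired RNA and ribosome footprint value in each of 4 adult mice. The 5 were selected on their footprint values, for a large fall in which the KO mice did not overlap the WT mice, so these values are given as a description, without a test. The choice named footprints and not RNA, but it was made with earlier results of these data known. The RNA libraries came from the same 4 mice, and whatever those mice share enters both measurements.

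KO mice (n = 2) carried floxed Nsun2 with Camk2a-Cre, and WT mice (n = 2) carried floxed Nsun2 without Cre. LoxP sites flank exon 6 of Nsun2, and the Camk2a promoter drives Cre in excitatory forebrain neurons, so other cells of the cortex keep the gene. Each library was made from whole cortical tissue of 1 mouse. In such bulk samples, fewer cells of a type and less RNA per cell cannot be told apart. The series lists 103 samples, and only the libraries of these 4 mice were used.

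Nsun2 adds methyl groups to cytosines of tRNAs, glycine tRNAs among them, and the profiling asked how its loss alters what ribosomes read. A footprint is the stretch of mRNA that a ribosome shields from nuclease, so the footprint value of a transcript depends on how much RNA there is and on how densely ribosomes sit on it. The ratio of footprints to RNA is called translational efficiency.

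The 5 genes do not form a pathway. Otof encodes otoferlin, a calcium-binding ferlin known for synaptic vesicle release at the inner hair cells of the ear. Myl4 encodes an essential myosin light chain best known from the atria and the embryo. Crym encodes mu-crystallin, a cytosolic protein that binds thyroid hormone. Crip2 encodes a small protein with LIM zinc-binding domains. Calb1 encodes calbindin, an EF-hand calcium buffer that, in the cortex, marks some interneurons and some upper layer pyramidal neurons.

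The coding sequences differ in how much glycine they ask for, and whether this bears on translation was not tested. A stretch of Otof and one of Crip2 are shown because the ratio of footprints to RNA moved differently for these genes. Each is the run of 100 codons of the measured transcript with the most glycine codons, read 5′ to 3′ in frame from GENCODE vM21 (GRCm38), with the glycine codons in capitals. They cover codons 115 to 214 of Otof on chromosome 5 and codons 22 to 121 of Crip2 on chromosome 12.
Otof: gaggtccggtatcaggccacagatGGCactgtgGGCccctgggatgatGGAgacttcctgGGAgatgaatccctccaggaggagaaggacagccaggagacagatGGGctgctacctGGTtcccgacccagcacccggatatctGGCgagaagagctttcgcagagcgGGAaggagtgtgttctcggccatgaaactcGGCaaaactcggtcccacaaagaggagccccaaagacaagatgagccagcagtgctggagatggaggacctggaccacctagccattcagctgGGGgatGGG
Crip2: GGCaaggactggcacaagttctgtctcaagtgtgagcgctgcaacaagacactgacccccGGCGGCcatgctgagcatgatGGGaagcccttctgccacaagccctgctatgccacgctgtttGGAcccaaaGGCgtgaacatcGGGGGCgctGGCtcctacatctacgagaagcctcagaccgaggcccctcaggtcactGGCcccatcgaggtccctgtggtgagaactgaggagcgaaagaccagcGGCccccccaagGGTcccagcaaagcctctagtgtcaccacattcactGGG
The Crip2 stretch holds 13 glycine codons, of which 8 are GGC and 1 is GGA. The Otof stretch holds 11, of which 4 are GGC and 3 are GGA.

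Over the whole coding sequence, Crip2 had the largest glycine share of the 5, with 23 of 208 codons (11.1%, the 96.1 percentile of 10573 tested transcripts with a coding sequence, whose median was 6.30%). Calb1 had 16 of 261 codons (6.13%), Crym 22 of 313 (7.03%), Myl4 13 of 193 (6.74%) and Otof 130 of 1997 (6.51%). These 4 lie between the 46.5 and 63.7 percentiles, near the middle of all transcripts. By GGA alone the order was another one. Calb1 had GGA at 4.21% of its codons (98.4 percentile) and Crym at 2.88% (90.4 percentile), whereas Crip2 had it at 1.92% (67.9 percentile) and Otof at 1.15% (32.8 percentile). The median transcript had GGA at 1.51% of codons.

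In GRCm38, Otof lies at chr5:30367062-30461932 on the minus strand (47 exons), Myl4 at chr11:104550663-104587215 on the plus strand (9 exons) and Crym at chr7:120186380-120202111 on the minus strand (8 exons). Crip2 lies at chr12:113140236-113145506 on the plus strand (7 exons) and Calb1 at chr4:15881264-15908064 on the plus strand (11 exons). Only Myl4 overlaps other annotated genes, all on the opposite strand, and the RNA kit and the alignment kept strand.

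The libraries were alike in size and closely related. Each library's RNA values are whole multiples of one step, and the RNA libraries sum to 10465003 to 13174377 steps, which is their depth if 1 step is 1 read. The footprint values sum to 1299137 to 1325836 per mouse, and their read depth is unknown. Between mice, log2 values correlated with r of 0.981 to 0.993 across transcripts for RNA and 0.953 to 0.974 for footprints. Transcripts are not independent replicates. Nothing in the labels says how the mice were housed or processed together, and with 2 mice against 2 an exact two-sided permutation test of one value cannot go below p = 0.333.

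The targeted gene was checked first. Nsun2 RNA was 362 and 368 in KO mice, against 1292 and 1120 in WT mice (normalized value), and its footprints were 30.4 and 23.0 in KO mice, against 130 and 114 in WT mice. RNA of KO cortex was thus 30.3% of that of WT cortex (log2 fold change −1.72, limma adjusted p = 4.5e-05). The value covers the whole transcript and not exon 6 alone, and cells without Cre contribute to it.

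RNA of all 5 genes fell in KO cortex (5 of 5 past an adjusted p of 0.05 in limma, against a background of 1.65% of the 10674 transcripts tested that were lower past the same threshold). RNA in KO mice ran from 19.5% of that in WT mice for Otof to 69.2% for Crip2. In all 5 genes the genotypes did not overlap, which holds for 21.6% of all transcripts tested in this direction. The median log2 fold change of RNA was −0.84 for the 5 genes and 0.04 for all transcripts tested. These calls are not independent of the choice of the genes, since earlier results were known and footprints and RNA were read from the same tissue. Among all 308 transcripts whose footprints were lower without overlap by at least as much as those of Calb1, the smallest fall of the 5, 62 (20.1%) had lower RNA past the threshold. Of the same 308, 219 (71.1%) had lower RNA without overlap, so this trait is common among transcripts chosen in this way.

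Otof had the deepest fall. Its RNA was 51.0 and 48.1 in KO mice, against 272 and 236 in WT mice. Both KO mice stood far below both WT mice, and within a genotype the mice were close. KO cortex held 19.5% of the RNA of WT cortex (log2 fold change −2.33, SE 0.18, limma adjusted p = 1.0e-04). Of 2309 transcripts whose RNA was lower without overlap, none had a larger fall. Otof footprints were 11.7 and 11.7 in KO mice, against 54.4 and 50.6 in WT mice, or 22.3% of WT. Per length, however, Otof is a weak transcript in this tissue. Its RNA was 35.6 per kb in WT mice, at the 9.3 percentile of tested transcripts, and the KO values correspond to 46 and 49 steps, against 310 and 237 in WT mice.

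Myl4 was the second in size. RNA was 183 and 227 in KO mice, against 533 and 468 in WT mice, with no overlap. KO cortex held 40.9% of the RNA of WT cortex (log2 fold change −1.29, SE 0.15, limma adjusted p = 0.0015). Footprints were 40.2 and 47.1 in KO mice, against 115 and 113 in WT mice, or 38.3% of WT. Unlike Otof, this light chain is well represented, at 569 RNA per kb in WT mice (87.0 percentile).

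Crym varied most between the KO mice. RNA was 313 and 216 in KO mice, against 449 and 486 in WT mice. The KO mouse with the higher value was still below both WT mice, but the gap to them was not much larger than the gap between the KO mice. KO cortex held 56.5% of the RNA of WT cortex (log2 fold change −0.84, SE 0.17, limma adjusted p = 0.026). Footprints were 179 and 143 in KO mice, against 278 and 326 in WT mice, or 53.4% of WT. The KO mouse with more Crym RNA also had more footprints.

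Crip2 and Calb1 fell by similar and smaller amounts in RNA. Crip2 RNA was 662 and 638 in KO mice, against 981 and 898 in WT mice (69.2% of WT, log2 fold change −0.53, SE 0.11, limma adjusted p = 0.032). Calb1 RNA was 1343 and 1532 in KO mice, against 1880 and 2280 in WT mice (69.1% of WT, log2 fold change −0.53, SE 0.12, limma adjusted p = 0.038). Neither gene's genotypes overlapped, although the Calb1 values of each genotype were spread more widely than those of Crip2. In footprints the pair differed more. Crip2 had 174 and 161 in KO mice, against 314 and 286 in WT mice (55.9% of WT). Calb1 had 229 and 246 in KO mice, against 362 and 391 in WT mice (63.1% of WT). Both coding sequences carried 144.2 footprints per 100 codons in WT mice, near the top of all tested transcripts.

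**Figure D1:**
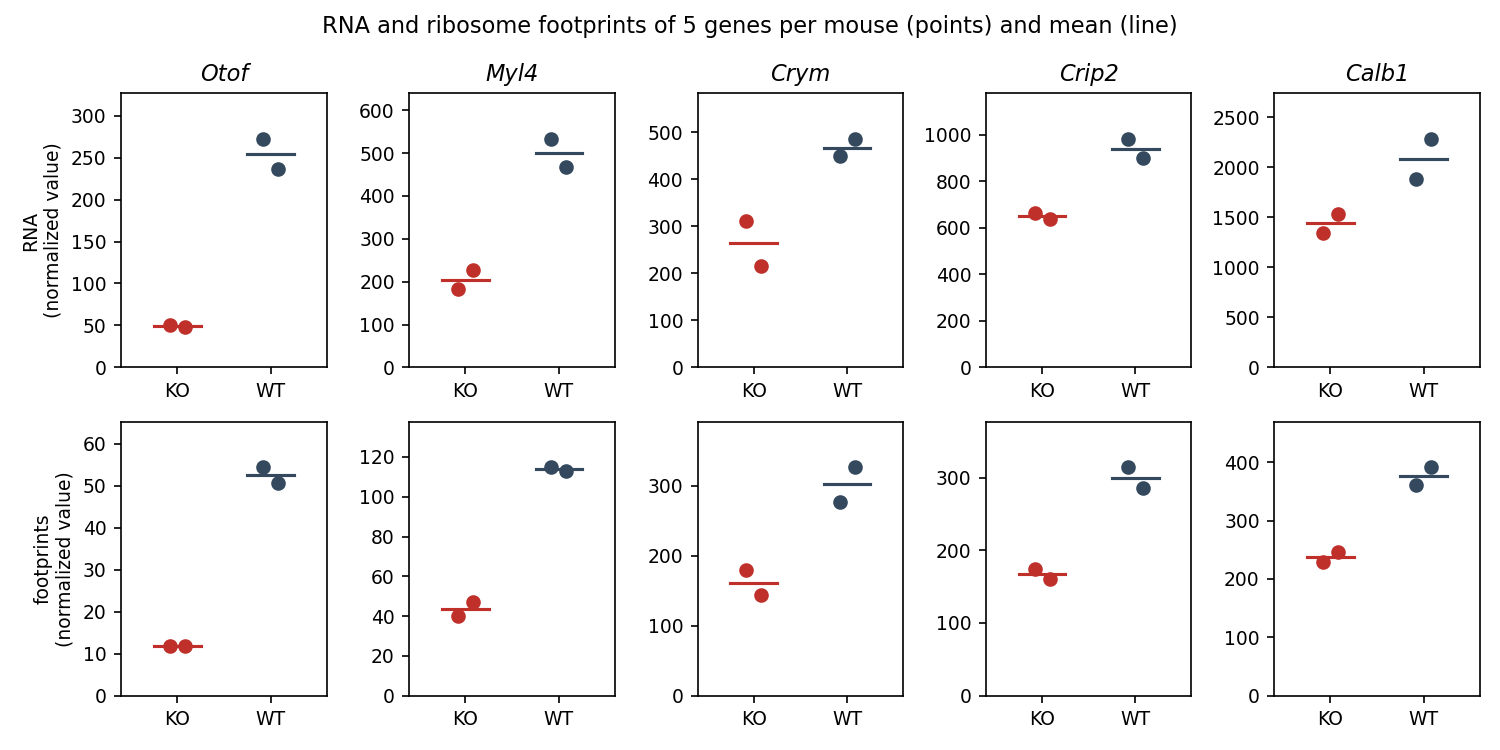
RNA (top row) and footprints (bottom row) of the 5 genes as normalized values on axes that start at 0, with KO mice in red left of WT mice in dark blue; points are mice (n = 2 each) and lines are means. In all 10 panels both KO mice lie below both WT mice, and the gap is widest for Otof, with RNA of 51.0 and 48.1 in KO mice, against 272 and 236 in WT mice.

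The calls for the smaller falls were lost in some or all of the fits with 1 mouse left out. With each mouse left out in turn, Otof and Myl4 stayed past the threshold in 4 of 4 fits, and their log2 fold changes ranged from −2.43 to −2.23 and from −1.44 to −1.14. Crip2 passed in 0 of 4 fits (limma adjusted p from 0.057 to 0.138), with log2 fold changes of −0.59 to −0.47. Calb1 passed in 2 of 4, and lost its call when KO mouse 1 (0.153) or WT mouse 2 (0.176) was absent. Crym passed in 1 of 4. Its adjusted p was 0.118 without KO mouse 2, and it rose to 0.052 with WT mouse 1 left out and 0.152 with WT mouse 2 left out, with log2 fold changes between −1.11 and −0.58. All 5 genes stayed lower in KO mice in each of these fits. A fit that leaves 1 mouse in a genotype takes the spread of that genotype from the other. Its adjusted p therefore cannot be set beside that of the fit with 4 mice.

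**Figure D2:**
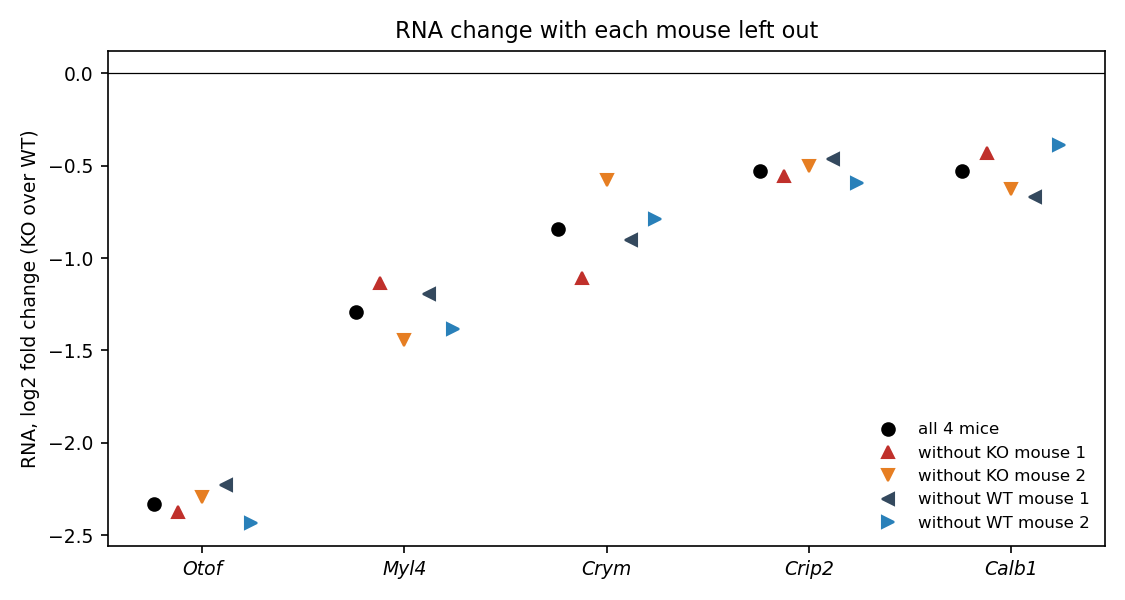
RNA log2 fold change (KO over WT) of each gene on a log2 axis, with all 4 mice (black circle) and with each mouse left out (triangles). All points are below 0; those of Crym spread from −1.11 to −0.58, and those of Crip2 only from −0.59 to −0.47.

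Although the 5 genes were chosen for large falls, they are not the 5 largest. By footprints, Otof ranked 2 and Myl4 19 among 2112 transcripts that were lower in KO mice without overlap (19.8% of those tested). Crym ranked 124, Crip2 155 and Calb1 308. The gene above Otof was Nsun2 itself, with a log2 fold change of −2.16, against −2.07 for Otof. After it came Shroom1, which encodes an actin-binding protein, at −1.86, with 3.25 and 7.63 footprints in KO mice, against 22.8 and 19.3 in WT mice. Ankrd63 (−1.85), Matn2 (−1.81), an extracellular matrix protein, and Mrc2 (−1.74), a collagen receptor, followed. Near Calb1, at −0.66, stood Fbxl21 just inside and Mtrf1 just outside, both also at −0.66. Mtrf1, which encodes a mitochondrial release factor, did not share the fall in RNA, where it stood at 0.17. The 5 genes differ from most of these transcripts in level. Of the 308, 42 had a mean WT footprint value of at least 100, and 4 of the 5 genes, all but Otof, are among them.

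Footprints fell about as far as RNA, as the scatter plot of both changes shows. The footprint log2 fold change was −2.07 for Otof, −1.37 for Myl4, −0.90 for Crym, −0.83 for Crip2 and −0.66 for Calb1. The median was −0.90, against 0.00 for all transcripts tested. Crip2 had the widest distance between its 2 changes, with −0.53 in RNA.

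**Figure D3:**
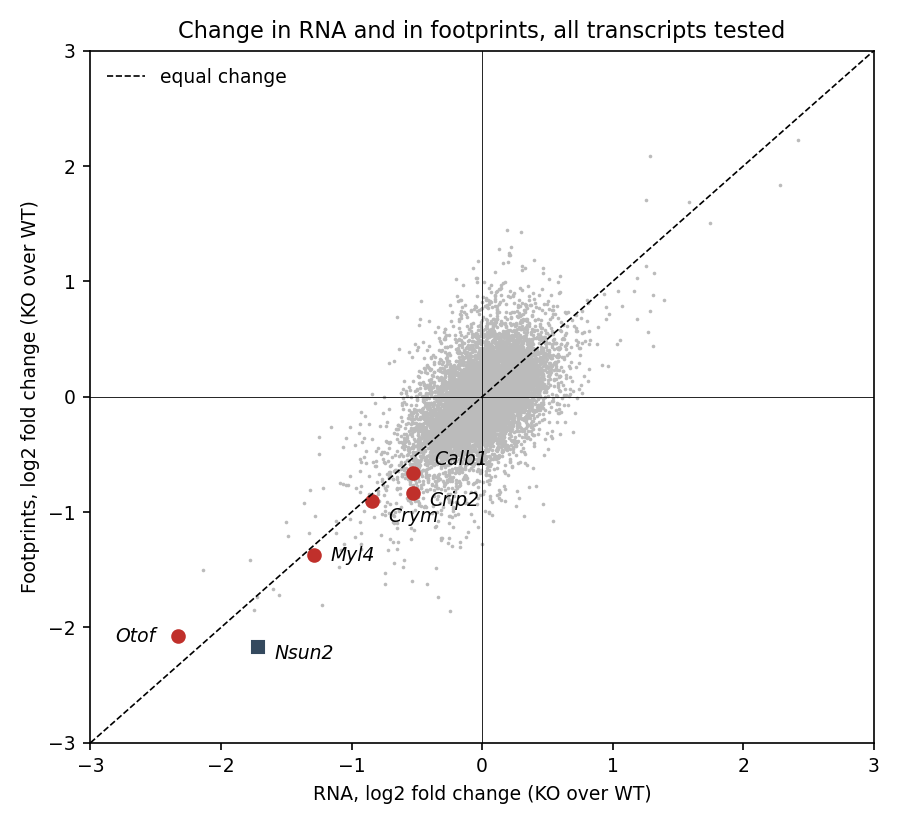
Log2 fold change (KO over WT) of RNA (x axis) and of footprints (y axis) for all 10674 transcripts tested (grey), the 5 genes (red circles) and Nsun2 (dark square), with a dashed line where both changes are equal. The 5 genes lie near the line; Otof is above it (RNA −2.33, footprints −2.07) and Crip2 is below it (RNA −0.53, footprints −0.83).

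Translational efficiency was taken for each mouse as log2 of footprints over RNA, relative to the median transcript of that mouse. Since the footprints chose the genes, it is described without a test. The ratio is not corrected for coding sequence or transcript length, so its level does not rank ribosome density across genes. By this ratio all 5 genes were above the median transcript in all 4 mice. Crym had the highest values, at 1.90 and 2.11 in KO mice, against 2.01 and 2.08 in WT mice, and the genotypes overlapped. Myl4 stood at 0.54 and 0.46 in KO mice, against 0.50 and 0.61 in WT mice, and Calb1 at 0.15 and 0.07 in KO mice, against 0.33 and 0.11 in WT mice, again with overlap. These 3 genes thus lost footprints and RNA in nearly equal proportion.

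Otof and Crip2 moved apart, in opposite directions. Otof had 0.67 and 0.75 in KO mice, against 0.40 and 0.45 in WT mice, a difference of 0.29 that lies at the 87.0 percentile of all transcripts tested. Its footprints fell less than its RNA, but its footprint values of 11.7 and 11.7 in KO mice are low, so the pseudocount matters. With pseudocounts of 0.5 and 5 its footprint log2 fold change was −2.12 and −1.78, against −2.34 and −2.24 in RNA. Crip2 had 0.79 and 0.72 in KO mice, against 1.06 and 1.00 in WT mice, a difference of −0.28 at the 13.1 percentile. Its footprints fell more than its RNA. Crip2 is also the gene with the largest glycine share of the 5, whereas Calb1, with the largest GGA share, had a difference of −0.11 with overlap. Whether codon content has a part in these differences was not tested. Separations like those of Otof and Crip2 are frequent in these data. Of all transcripts tested, 20.3% had a lower efficiency in KO mice without overlap and 17.8% a higher one, so 1 of 5 in each direction is near the background. The median difference was −0.05 for the 5 genes and −0.01 for all, whose middle 50% ran from −0.17 to 0.15.

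**Figure D4:**
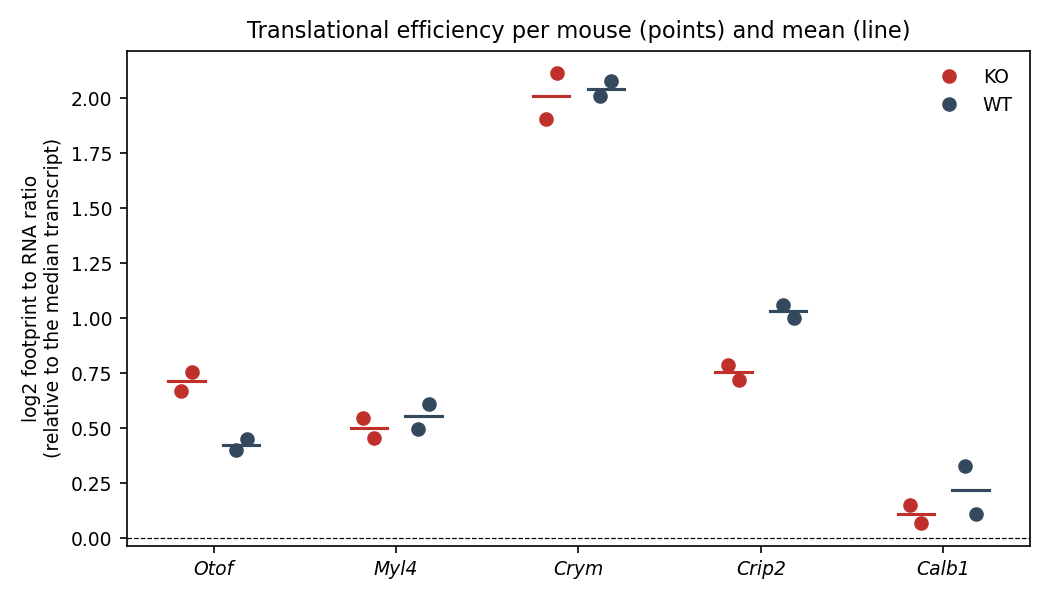
Translational efficiency (log2 of footprints over RNA, relative to the median transcript of each mouse, dashed line) for the 5 genes, with KO mice in red left of WT mice in dark blue; points are mice (n = 2 each) and lines are means. The genotypes are apart for Otof (higher in KO mice) and Crip2 (lower in KO mice) and overlap for Myl4, Crym and Calb1.

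Mice of one genotype mostly differed in the same sense in both assays. Of the 10 differences between the 2 mice of a genotype (5 genes, 2 genotypes), 9 had the same sign in RNA and in footprints, against 60.5% over all transcripts tested. All 10 come from the same 4 mice, so they are not independent, and some are close to 0 (0.02 for Myl4 footprints in WT mice). The share over all transcripts includes those down to a mean footprint value of 10. For Crym, the KO mice differed by 0.53 on the log2 scale in RNA and by 0.32 in footprints. The exception was Otof in KO mice, whose 2 footprint values are almost equal. 

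The composition of the tissue was examined with marker lists. Of 14 lists with a tested gene, summed RNA was lower in both KO mice than in both WT mice in 5. These were excitatory neurons, upper layer, layer 5, hippocampus and microglia. Summed RNA was higher in both KO mice in 2 (inhibitory neurons, and endothelium with mural cells and blood). The genes tested in the last list were Vtn, Rgs5, Acta2, Hbb-bs and Hba-a1. It therefore covers mural cells and blood, but no endothelial gene. Among single transcripts tested, 21.6% had lower RNA without overlap, and no such share was formed for sums. The summed RNA of 10 genes of cortical excitatory neurons was 70653 and 71313 in KO mice, against 87282 and 79328 in WT mice (85.2% of WT), although 0 of the 10 passed the threshold in limma in either direction (unadjusted p was under 0.05 for 1, which was lower). Camk2a and Nrgn, a postsynaptic calmodulin-binding protein, made up 79.1% of this sum. The other 8 genes summed to 16506 and 14957 in KO mice, against 16220 and 16933 in WT mice (94.9% of WT), with overlap. The list's median RNA log2 fold change was −0.11, and 3 of the 10 genes were above 0. For Camk2a, whose promoter drives Cre, RNA was 26978 and 26687 in KO mice, against 30778 and 30503 in WT mice (log2 fold change −0.19, limma adjusted p = 0.267). The summed RNA of 12 genes of inhibitory neurons was 9580 and 9757 in KO mice, against 7818 and 7728 in WT mice (124% of WT), with 1 of 12 higher past the threshold (1.5% of all transcripts tested). At an unadjusted p under 0.05, 4 were higher and 1, Reln, was lower. The list's median RNA log2 fold change was 0.14. Gad1, Gad2 and Pvalb made up 67.5% of the sum, and the other 9 genes summed to 2964 and 2856 in KO mice, against 2519 and 3016 in WT mice (105% of WT), with overlap. The gene past the threshold was Pvalb, the calcium buffer parvalbumin, with 931 and 1073 in KO mice, against 655 and 529 in WT mice (log2 fold change 0.76, limma adjusted p = 0.015).

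Set against the summed excitatory markers of the same mouse, the 5 genes were still lower in both KO mice than in both WT mice, except that the margin for Calb1 almost closed. Its RNA was 19.0 and 21.49 per 1000 of the markers' summed RNA in KO mice, against 21.54 and 28.7 in WT mice (80.5% of WT). Crip2 was at 81.2% of WT on this scale, Crym at 66.1%, Myl4 at 48.1% and Otof at 22.9%. Set against the 8 excitatory markers other than Camk2a and Nrgn, RNA was at 20.5% of WT for Otof, 43.4% for Myl4, 59.2% for Crym, 72.9% for Crip2 and 73.4% for Calb1, without overlap. In footprints the 5 genes ran from 24.1% of WT for Otof to 68.2% for Calb1 when set against the summed footprints of all 10 markers. Whether the shift in the markers has a part in the falls was not tested.

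In each list of cortical layer markers at most 1 gene passed the test. Of the upper layer list, 1 of 8 tested genes had lower RNA, Plxnd1, a semaphorin receptor (log2 fold change −0.46, limma adjusted p = 0.049). Of the layer 4 list it was 1 of 3, Kcnh5, a potassium channel (−0.65, adjusted p = 0.014). Of the layer 5 and layer 6 lists it was 0 of 10 and 0 of 8 in limma. Over all transcripts tested, 1.65% were lower past this threshold. At an unadjusted p under 0.05, 2 upper layer, 1 layer 4, 4 layer 5 and 0 layer 6 genes were lower. Of all transcripts tested, 9.34% reached that level in this direction. The median RNA log2 fold changes were −0.22, −0.17, −0.26 and −0.02 for these 4 lists in the same order, against 0.04 for all transcripts.

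Other tissue that a cortical dissection can carry was also looked at. The summed RNA of 8 striatal genes was 2705 and 4670 in KO mice, against 4739 and 2671 in WT mice, so that 1 mouse of each genotype was high. Of 4 hippocampal genes tested, Cpne4, a calcium-dependent phospholipid-binding copine, was lower in RNA, at 335 and 392 in KO mice, against 667 and 711 in WT mice (log2 fold change −0.92, limma adjusted p = 0.0042). The list's summed RNA was 2596 and 2069 in KO mice, against 2955 and 3358 in WT mice. Dkk3 and Cpne4 made up 83.1% of it, and the other 2 genes, Prox1 and Zbtb20, summed to 501 and 480 in KO mice, against 462 and 408 in WT mice. Among glial lists, the astrocyte gene Gfap was higher in RNA (0.76, adjusted p = 0.020) and the microglial receptor Cx3cr1 was lower (−0.73, adjusted p = 0.042). The 6 astrocyte genes had a median RNA log2 fold change of −0.14 and summed to 96.6% of WT, with Aldh1l1 at −0.38, Slc1a3 at −0.30 and Aqp4 at −0.25. Summed microglial RNA was 469 and 368 in KO mice, against 490 and 686 in WT mice. Cx3cr1 made up 36.2% of it. The other 5 genes summed to 345 and 219 in KO mice, against 284 and 437 in WT mice, with overlap. Of the 6 microglial genes, 0 had a log2 fold change above 0. In the lists of oligodendrocytes (7 tested), endothelium, mural cells and blood (5), striatum (8), thalamus (3) and olfactory bulb (1), 0 genes passed in RNA in limma. At an unadjusted p under 0.05 the list of endothelium, mural cells and blood had 2 higher, the hemoglobin genes Hbb-bs and Hba-a1. The other 4 lists had 0 in either direction. No choroid plexus gene passed the filter, and 1 of 6 was in the table. The part of these tissues and cells in the falls of the 5 genes was not tested.

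Relatives of the 5 genes mostly did not pass the test. Of 28 other EF-hand calcium buffers and sensors, 0 were lower in RNA and 1, Pvalb, was higher, so that Pvalb and Calb1, both calcium buffers, moved in opposite directions. Without adjustment, 9 of the 28 had p under 0.05 and were higher, and 1 was lower (11.9% of all transcripts tested were higher at that level). Of 8 ferlins and C2-domain exocytosis sensors related to Otof, 6 myosin light chains and their kinases related to Myl4 and 10 LIM-only proteins related to Crip2, 0 passed in RNA in either direction in limma. At an unadjusted p under 0.05 the ferlin list had 1 gene in each direction, the myosin list 2, both higher, and the LIM-only list 4 of 10, all of them lower (9.34% of all transcripts tested were lower at that level). The median RNA log2 fold changes of these 4 lists were 0.13, −0.03, 0.23 and −0.20. The gene that led to each list was chosen for a large fall, so its distance from the list's median says nothing about its relatives.

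For Crym, genes of thyroid hormone action were examined. The deiodinase Dio2 had RNA values of 499 and 409 in KO mice, against 551 and 737 in WT mice (log2 fold change −0.50, limma adjusted p = 0.104), and the receptor gene Thra had 9233 and 8041 in KO mice, against 11397 and 10394 in WT mice (−0.34, adjusted p = 0.099). Neither passed the threshold. Of 7 genes that respond to thyroid hormone, 0 passed in RNA in limma and 2 were lower at an unadjusted p under 0.05. In footprints 1 was lower past the adjusted threshold (0.384% of all transcripts tested), Camk4, a calcium-dependent kinase, at 210 and 305 in KO mice, against 426 and 394 in WT mice (log2 fold change −0.69, limma adjusted p = 0.045). In RNA, Camk4 stood at −0.62 (adjusted p = 0.061).

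The transcripts most like each gene were found by the mean absolute difference of log2 values over the 8 libraries, after each gene and assay was centred. The nearest to Otof were Nsun2 itself, at 0.214, Tnnc1, a troponin, at 0.282 and Alox12b, a lipoxygenase, at 0.293. The nearest to Myl4 was Htr2a, a serotonin receptor, at 0.156, followed by Ddit4l at 0.158. The nearest to Crym was Sez6, a neuronal membrane protein, at 0.082, followed by Rsph9 at 0.100 and Spon1 at 0.102. For Crip2 it was Ehbp1l1 at 0.076, followed by Sfxn4 at 0.080 and Celf3 at 0.092. For Calb1 it was Gda, the guanine deaminase, at 0.039, followed by Dcbld2 at 0.062 and the layer 4 list's Kcnh5 at 0.072. The distance to the nearest transcript was largest for Otof and smallest for Calb1, in the order of their footprint falls. The measure includes the footprints that chose the genes, so it is not a separate property of them. Among the 5 genes themselves, Crip2 and Calb1 were the most alike (0.140), and Otof and Calb1 the least (0.803).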

How the data were processed

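Footprint and RNA libraries of 4 mice came from one table. The deposited signal in it was made by the authors, who trimmed reads with cutadapt 3.1, removed duplicates with UMI-tools 1.1.1, aligned to transcripts with Bowtie2 2.4.2, handled files with SAMtools 1.11, corrected footprints for stalled codons and scaled both assays by medians in Ribolog. No read counts were used, so no count test was run.

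Transcript identifiers were matched to GENCODE vM21 for 12588 of 12719. Transcripts with a mean footprint value of at least 10 were kept (10674; all 5 genes passed), and log2(value + 1) was tested in each assay with limma 3.58.1 (trend) in R 4.3.3, Benjamini-Hochberg adjusted at 0.05 over all of them. Fold changes on this scale understate changes of low genes. Percent of WT is the ratio of means. Python 3.11.15, numpy 2.4.6, pandas 2.3.3 and matplotlib 3.10.9 were used. The steps were tested on simulated data (50 transcripts for each fall, among 10674). RNA falls of 1 on the log2 scale were recovered in 96% of cases and of 0.5 in 56%. For footprints, 70% and 24% of falls of the same sizes were recovered. The simulated spread depended on the mean level alone, with nothing shared between mice, so recovery in the real data can be lower.

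The 5 genes, the 21 gene lists (15 of markers, 6 of related genes) and the tests were chosen with earlier results of these data known. Named besides the 5 are Nsun2, those with the 5 largest other footprint falls without overlap, the 3 transcripts nearest to each gene (those with a symbol) and up to 3 genes of each list past the threshold. Fbxl21, Mtrf1, Dio2, Thra and list genes that did not pass the threshold were named, and list sums without their leading genes were formed, after the values were seen. The counts of 1 list and 1 sequence are not reported here. Alternatives were pseudocounts of 0.5 and 5, no filter or one of 50, 2 other scalings, the replicate number as a block, each mouse left out and, added after the data were seen, a crossed pairing.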

Additional observations from a re-analysis of the deposited data

How the results depend on the processing

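All 5 genes were lower in KO mice in RNA under each alternative in which they were tested. With the filter at a mean footprint value of 50, Otof was not tested and the other 4 passed. Labels do not say that equal numbers pair KO and WT mice. With the replicate number as a block, 1 of the 5 RNA falls passed (Otof, limma adjusted p = 0.046; Myl4 0.086, Crym 0.157, Crip2 0.150, Calb1 0.140), and over all transcripts RNA calls numbered 2 lower and 4 higher, against 176 and 160 without the block, and footprint calls 1 and 2, against 41 and 22. Deviations of same-numbered mice correlated at −0.109 in RNA and −0.149 in footprints, and a crossed pairing, chosen after seeing the data, gave 553 lower and 494 higher RNA calls and 298 and 136 footprint calls. With each mouse left out, 2 to 3 of the 5 RNA falls passed, and the median footprint log2 fold change ran from −1.07 to −0.78, against −0.90 with all 4 mice. Over all transcripts those fits gave 15 to 258 lower and 35 to 256 higher RNA calls, and 12 to 382 lower and 5 to 166 higher footprint calls; the fewest lower RNA calls came with WT mouse 2 left out and the most footprint calls with WT mouse 1 left out. With the filter at 50, footprint calls were 11 lower and 14 higher. Median log ratio scaling gave 204 lower and 122 higher RNA calls, quantile normalization 181 and 127. With a pseudocount of 5 the footprint fall of Otof was −1.78. The median translational efficiency difference of −0.05 became 0.02 without WT mouse 2. Depth limits Otof most, at 46 and 49 steps of RNA in KO mice.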
